A study of Mus musculus with 8 samples.

Results

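ATAC-seq, in which the Tn5 transposase cuts and tags DNA that nucleosomes leave free, was performed on brown adipose tissue (BAT), the heat-producing fat of mice. The results below describe the open chromatin summits at Khsrp, Cycs, Sp1 and Ifrd1, 4 genes that were chosen by the high values of the summits at their promoters. A summit is the highest point of a peak of ATAC-seq reads, and every summit was taken that lay inside one of these genes or at most 50 kb from its RefSeq mRNA transcription start site (TSS). There were 26 such summits of 32173 in the authors' deposited list, with 10 at Khsrp, 8 at Sp1, 6 at Ifrd1 and 2 at Cycs. The BAT came from 2 WT and 2 Dot1L-BKO mice at 12 weeks of age on a chow diet, all kept at 4°C for 4 hr before collection, and the nuclei of each mouse were processed separately. The WT mice were Dot1l f/f controls. The Dot1L-BKO mice carried the same floxed allele of Dot1l, the H3K79 methyltransferase, together with Ucp1-Cre, which removes Dot1l in Ucp1+ cells, so that other cells of the tissue keep it. RNA-seq of BAT of the same genotypes was not analysed here.

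Each summit carries a score, which is the −log10 of the q-value that the peak caller MACS2 gave its peak. The list has 1 score per peak from the 4 libraries, named as WT against Dot1L-BKO, and no value for any single library. No replicate error, read depth or comparison of the genotypes can therefore be given, and which libraries served as treatment and which as control for the peaks is not given in the sources used here. If the libraries of one genotype were the control, a high score would measure signal over that genotype, and if all were pooled, it would measure signal over the local background. The scores below therefore rank summits within the list and are not levels of open chromatin in either genotype. As to the tissue, a summit within 1 kb of the TSS was found at 45.2% of the 21000 genes with a curated RefSeq mRNA. It was found at 10 of 10 adipocyte genes, of which Ucp1, Cidea, Elovl3, Cox8b, Dio2, Ebf2 and Prdm16 mark brown adipocytes and Pparg, Adipoq and Plin1 are also used in white fat, with scores from 6.02 at Cox8b to 61.5 at Cidea. A promoter summit was present at 1 of 4 endothelial genes (Cdh5, 2.59) and 1 of 4 macrophage and leukocyte genes (Cd68, 2.149), and at 0 of 4 skeletal muscle genes and 0 of 4 genes of other organs. Lists of 4 genes are too short to be set against the share over all genes. Nuclei of several cell types were pooled in each library, and a score does not say which cells were open.

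The 4 genes have different roles. Khsrp encodes a KH-domain protein that binds AU-rich elements in mRNAs and promotes their decay, and it also takes part in splicing and microRNA maturation. Cycs encodes somatic cytochrome c, which carries electrons from complex III to complex IV of the respiratory chain and, once released from mitochondria, activates caspases through Apaf1. Sp1 encodes a zinc finger factor that binds GC boxes in many promoters, and Ifrd1 encodes a transcriptional coregulator induced by growth factors and stress. A promoter that is in use is commonly kept free of nucleosomes just upstream of the TSS, and ATAC-seq reads collect there.

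The DNA at the promoter summits is shown because it is what the high promoter scores of these 4 genes refer to. Each sequence holds the summit base and the 100 bases on either side of it in the mouse reference (mm10), read 5′ to 3′ on the strand of the gene, and all 4 lie upstream of the TSS. Capitals mark matches, on either strand, to the following patterns. The GC box GGGCGG is bound by Sp and KLF factors. The CCAAT box is bound by NF-Y. The cAMP response element (CRE) TGACGTCA is bound by CREB. The E-box CACGTG is bound by helix-loop-helix factors. The Khsrp sequence is the minus strand of chr17:57031732-57031932, from 425 to 225 bp upstream of the TSS. The Cycs sequence is the minus strand of chr6:50566610-50566810, from 241 to 41 bp upstream. The Sp1 sequence is the plus strand of chr15:102405829-102406029, from 487 to 287 bp upstream. The Ifrd1 sequence is the minus strand of chr12:40223274-40223474, from 285 to 85 bp upstream.
Khsrp: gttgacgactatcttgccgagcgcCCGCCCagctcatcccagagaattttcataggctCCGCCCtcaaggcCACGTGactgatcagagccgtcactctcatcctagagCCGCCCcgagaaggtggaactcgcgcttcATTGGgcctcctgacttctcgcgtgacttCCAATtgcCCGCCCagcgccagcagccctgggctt
Cycs: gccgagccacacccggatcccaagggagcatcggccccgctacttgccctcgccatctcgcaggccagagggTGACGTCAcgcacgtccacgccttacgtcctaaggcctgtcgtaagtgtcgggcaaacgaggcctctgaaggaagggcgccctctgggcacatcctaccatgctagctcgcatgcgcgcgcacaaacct
Sp1: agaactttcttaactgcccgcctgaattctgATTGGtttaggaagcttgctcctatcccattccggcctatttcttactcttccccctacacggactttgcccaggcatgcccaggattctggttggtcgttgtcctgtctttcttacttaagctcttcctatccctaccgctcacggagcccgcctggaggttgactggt
Ifrd1: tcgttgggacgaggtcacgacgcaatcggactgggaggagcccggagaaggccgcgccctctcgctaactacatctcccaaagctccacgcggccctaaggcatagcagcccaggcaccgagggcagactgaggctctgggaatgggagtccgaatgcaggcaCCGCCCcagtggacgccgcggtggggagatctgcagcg

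All 4 genes had a summit within 1 kb of their TSS, called a promoter summit here, as did 45.2% of the 21000 genes with a curated RefSeq mRNA. These are the values by which the genes were chosen, and they are given as a description. The Khsrp summit, at position 57031832 of chromosome 17, had a score of 180.4 and ranked 21 among all 32173 summits. The Cycs summit, at 50566710 of chromosome 6, had a score of 155.0 and ranked 24. The Sp1 summit, at 102405929 of chromosome 15, had a score of 123.5 and ranked 28. The Ifrd1 summit, at 40223374 of chromosome 12, had a score of 122.3 and ranked 29. Khsrp and Cycs stood apart from the other two, whose scores differed little from each other. Across the 9485 genes that had one, the median of the highest promoter score was 10.7, and 30 of these genes reached 100. Of the 56 summits of the list that reached 100, 26 lay within 1 kb of an mRNA TSS. Farther from a TSS the highest score was 13430.

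Ranked by promoter score, Khsrp, Cycs, Sp1 and Ifrd1 took places 2 to 5 among all genes. Place 1 was held by the predicted gene Gm20594, with a score of 1749. The DNA within 100 bases of the Gm20594 summit matched mitochondrial DNA along its whole length, with 95% of the bases identical, and with that gene left out the 4 genes take places 1 to 4. The gene just outside was Acadm, the medium-chain acyl-CoA dehydrogenase of fatty acid oxidation, at 121.2, so that no gap separates Ifrd1 from the genes that follow. Next came Dnpep at 119.1, Slc25a42, a mitochondrial carrier for coenzyme A, at 117.6, and Srgap2 and Fam72a, which share a summit between their TSSs, at 116.5. Mtrf1l, a mitochondrial translation release factor, had 115.3, Tsga10 114.2 and Fam160a2 113.2, and Cdca2 and Kctd9 share a summit at 111.8. The order of genes with neighbouring scores cannot be told from a list without replicate error.

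**Figure D1:**
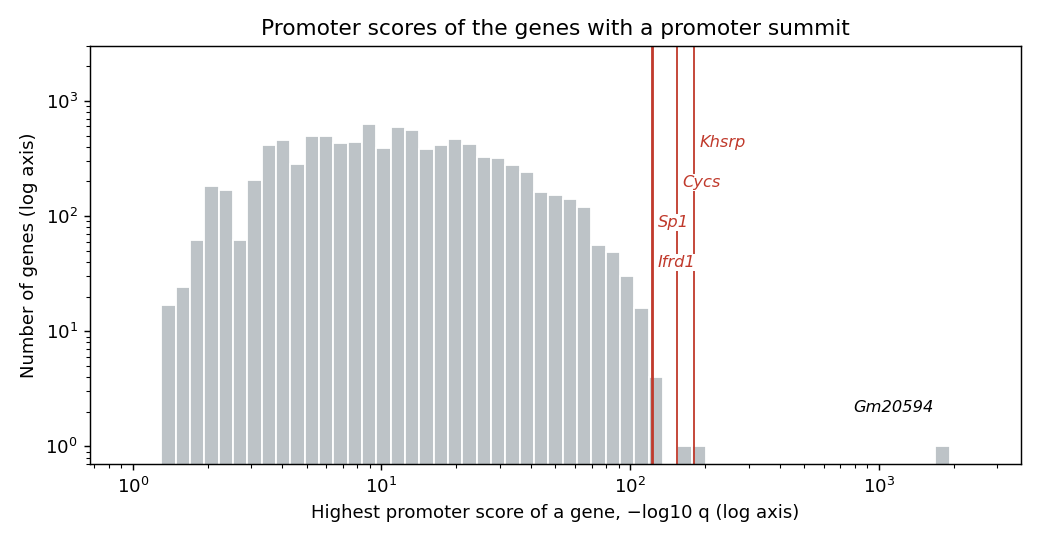
Number of genes (log axis) by the highest promoter score of the gene (−log10 q, log axis), for the 9485 genes with a promoter summit. Red lines mark Khsrp (180.4), Cycs (155.0), Sp1 (123.5) and Ifrd1 (122.3), which lie at the upper end of the distribution, below Gm20594 at 1749.

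The promoter summits of all 4 genes lay upstream of the TSS, outside the transcribed sequence of any RefSeq mRNA. The distance was 141 bp at Cycs, 185 bp at Ifrd1, 325 bp at Khsrp and 387 bp at Sp1. From the nearest transcript start of the same gene in GENCODE, the distance was 172, 185, 310 and 214 bp in that order. Of these, the distance at Sp1 differed most from that to the RefSeq TSS. Over all 10375 summits within 1 kb of an mRNA TSS, 51.2% lay upstream, and 24.7% lay at least 141 bp upstream, as far as the nearest of these 4. The score was used to choose the genes, and position varied with the score in the whole list. The median position was 55 bp downstream for promoter summits with a score under 10, 28 bp upstream for 10 to 20, 70 bp upstream for 20 to 50, and 127 bp upstream for 50 to 100. Among the 22 other promoter summits with a score of 100 or more, 16 lay upstream and 13 lay at least 100 bp upstream. The upstream position of the 4 summits is thus shared with most summits of like score.

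**Figure D2:**
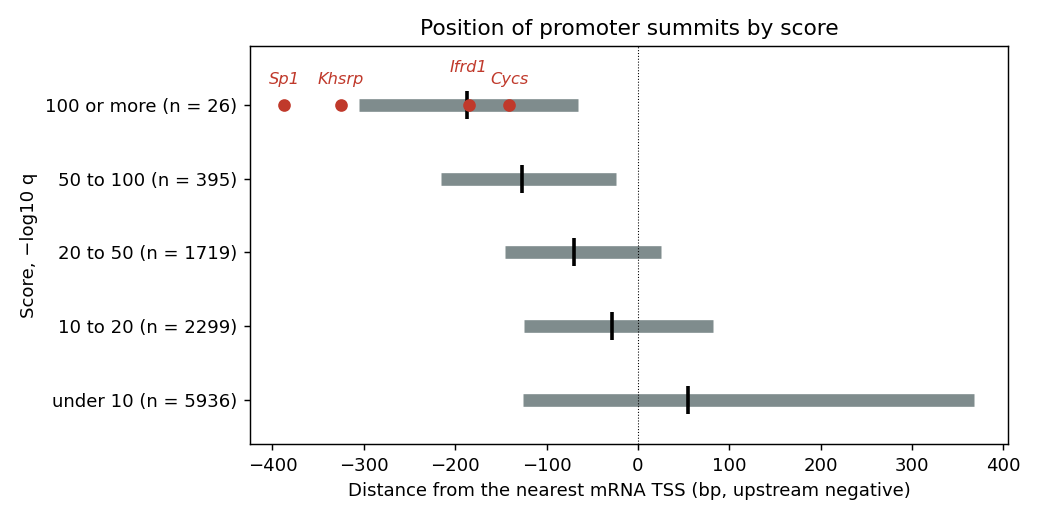
Distance of promoter summits from the nearest mRNA TSS (bp, upstream negative) in 5 ranges of the score. Grey bars span the quartiles, black ticks are medians, and red points are the 4 genes, which all lie upstream of the TSS, by 141 to 387 bp.

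Cycs and Ifrd1 start next to a long noncoding RNA that is read in the opposite direction. The TSS of 5430402O13Rik lies 74 bp upstream of the Cycs TSS, and the Cycs summit was 67 bp inside this noncoding gene. The TSS of Gm7008 lies 175 bp upstream of the Ifrd1 TSS, and the Ifrd1 summit was 10 bp inside it. Both summits therefore belong to a pair of divergent starts, and the list cannot assign them to either. The start of a long noncoding or antisense RNA in RefSeq that was nearest to the summit lay 41584 bp from the TSS at Khsrp and 55489 bp at Sp1. Other kinds of noncoding RNA were not searched. Of the 9485 genes with a promoter summit, 716 (7.55%) had a divergent start of such an RNA within 1 kb upstream, against 2 of these 4, a number of genes too small for a comparison.

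The sequence around the summits was compared with the other promoter summits, since sequence was not used to choose the genes. Within 150 bp on either side of the summit, the GC content was 66.8% at Ifrd1, 65.8% at Cycs, 58.8% at Khsrp and 51.8% at Sp1, with a median of 62.5% over all 10375 promoter summits. The Sp1 summit was thus poor in G and C for a promoter summit, and 8.64% of these summits had a lower content. The ratio of observed to expected CpG was 0.923 at Cycs, 0.896 at Ifrd1, 0.817 at Khsrp and 0.759 at Sp1, against a median of 0.752. In the 300 bp from 250 bp before to 50 bp after the TSS, where RefSeq promoter sequences were held for all 4 genes, the GC content was 68.0% at Khsrp, 65.7% at Ifrd1, 65.0% at Cycs and 61.7% at Sp1. The median of 20488 such promoters, of 16853 genes, was 57.0%. The Khsrp and Sp1 summits lie outside this window, where the content was higher than at the summit for both.

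Of 11 short patterns searched on both strands, 3 were found within 150 bp of the summit at all 4 genes. These were the GC box GGGCGG, which 57.1% of all promoter summits held, the CCAAT box (34.6%) and the short CRE pattern TGACG (30.6%). The same 3 patterns were found at all 4 genes in the window from 250 bp before to 50 bp after the TSS, where 47.6%, 38.4% and 24.2% of 20488 promoters held them. Among the 10011 promoters of genes with a promoter summit, as these 4 are, the shares were 65.5%, 38.6% and 33.4%. Khsrp had 5 GC boxes around its summit, and 2.16% of promoter summits had at least as many. It also had 3 CCAAT boxes, reached by 4.61% of promoter summits, and Sp1 had 2, reached by 13.0%. Khsrp and Cycs each had 3 short CRE patterns, reached by 1.87%, and Sp1 had 2, reached by 8.65%. Ifrd1 had 3 GC boxes, reached by 13.6%, and Sp1, whose product binds this pattern, had 1 at its own summit and 4 in the window at its TSS. The single GC boxes of Cycs and Sp1 lie outside the stretches printed above.

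Cycs alone held the full CRE TGACGTCA, from 169 to 162 bp upstream of the TSS in the sequence printed above. This pattern contains the short CRE pattern on both strands and was found at 2.61% of promoter summits. Cycs is a textbook target of CREB and of nuclear respiratory factor 1. The pattern searched for the latter, found at 8.11% of promoter summits, was not found at any of the 4 summits. This says only that these exact letters are not in the window. Toward the end of the printed Cycs sequence, a stretch differs from this pattern in its first letter only. Such near matches were not searched for, so whether Cycs lacks a site for this factor was not tested. Khsrp alone had an E-box, CACGTG (9.17%). The patterns for ETS factors (CCGGAAG, 15.5%), YY1 (AAGATGGC, 3.78%), the TATA box (TATAAA, 3.99%), AP-1 (TGANTCA, 5.10%) and CTCF (a core pattern of 12 letters, 0.501%) were found at 0 of the 4. A match is a stretch of letters and not a shown binding site.

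The DNA printed for the 4 genes had 0 further matches in the reference genome, mitochondrial DNA included, in a blastn search with an e-value limit of 1e-10. With 250 bases on either side of the summit, only Cycs had any, 3 matches of at most 75 bp. In the printed sequences, 22 bases were masked as repeat at Sp1 and 0 at the other 3 genes. Over all 10375 promoter summits, 70.1% likewise had no masked base within 100 bases. The 4 promoter summits differed in this respect from that of Gm20594. Of the other 22 summits around the genes, 3 had further matches within 100 bases of the summit. These were the exon 3 summit of Sp1, with 1 match, and both summits inside Lsmem1 near Ifrd1, of which one had 1 match and the other, 26247 bp downstream of the Ifrd1 TSS, had 91043. With 250 bases on either side, 8 of all 26 summits had a further match.

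Around the promoters the 4 genes differed. Cycs stood almost alone, with 2 summits within 50 kb of its TSS, and the one besides its promoter had a score of 5.07. Ifrd1 had 6 summits, with 6.53 as the highest score after its promoter, Sp1 had 8, with 15.4 as the next, and Khsrp had 10, with 36.1 as the next. The median over the 9485 genes with a promoter summit was 4 summits, with quartiles of 2 and 8. Of the 26 summits, 5 lay at the genes' own promoters, 6 within 1 kb of the TSS of another mRNA gene and 15 elsewhere. The 15 elsewhere had a median score of 3.75, near the 4.16 of the 21798 summits of the whole list that lay farther than 1 kb from an mRNA TSS.

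**Figure D3:**
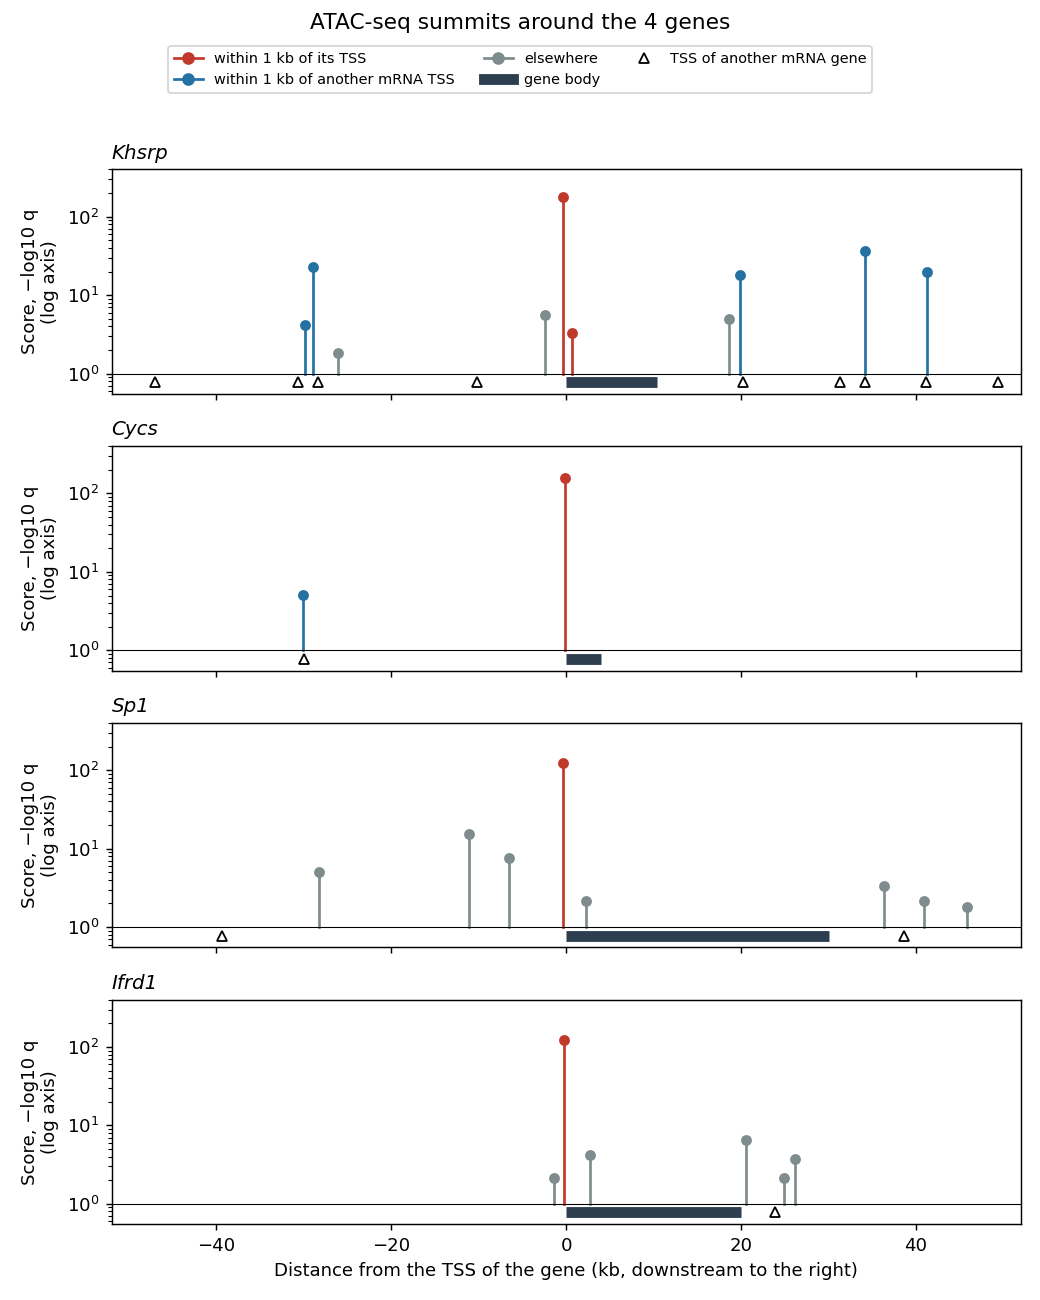
Scores of the 26 summits (−log10 q, log axis) by distance from the TSS of each gene (kb). Red stems are summits within 1 kb of the gene's own TSS, blue stems lie within 1 kb of another mRNA TSS and grey stems lie elsewhere, and the dark bar is the gene body. A tall stem stands at the TSS of each gene, with several neighbouring promoters around Khsrp and few summits around Cycs.

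Khsrp (chromosome 17, 57021049 to 57031507, minus strand) lies among many genes, with 9 other mRNA genes starting within 50 kb, more than for 97.3% of genes with a promoter summit. Of its 9 neighbours 5 had a promoter summit, a share near the 45.2% of all genes. The highest was at Alkbh7, a mitochondrial protein of the AlkB family, with a score of 36.1 at 63 bp upstream of the TSS. Slc25a23, a calcium-regulated mitochondrial carrier of ATP-Mg and phosphate, had 23.1. Clpp, the proteolytic subunit of the mitochondrial ClpXP protease, had 19.4, and Gtf2f1, a subunit of the general transcription factor TFIIF, had 18.0. Crb3, a cell polarity protein, had 4.16. Dennd1c, Slc25a41, Pspn and Acer1 had none. Within the gene itself, a second promoter summit lay 704 bp downstream of the TSS in intron 1, with a score of 3.32. A summit at 2428 bp upstream, inside an intron of Slc25a41, had a score of 5.55. The remaining ones were a summit 18677 bp downstream, between genes, at 4.92, and one 26098 bp upstream, inside Slc25a23, at 1.83.

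Cycs (chromosome 6, 50562563 to 50566569, minus strand) had no summit in its gene body and none downstream of the TSS within 50 kb. Its only other summit lay 30149 bp upstream, with a score of 5.07. This summit was 128 bp upstream of the TSS of 4921507P07Rik, the only other mRNA gene that starts within 50 kb. The gene spans 4007 bp, and 30.0% of genes with a promoter summit likewise had no summit within the gene body.

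Sp1 (chromosome 15, 102406316 to 102436404, plus strand) had the highest scores away from promoters. A summit 11065 bp upstream had a score of 15.4, the highest of the 15 that lay at no mRNA promoter, and one at 6495 bp upstream had 7.58. Both lie between genes, and Sp1 is the nearest mRNA gene to each. The upstream summit at 28232 bp had a score of 5.07. In the gene body, a summit with a score of 2.149 lay in the coding part of exon 3, 2334 bp downstream of the TSS. The remaining 3 lay at 36408, 40909 and 45901 bp downstream, with scores of 3.32, 2.149 and 1.83, next to or within Amhr2, the receptor of anti-Müllerian hormone. Sp7, the osteoblast factor of the same family, starts 39348 bp upstream. Neither Sp7 nor Amhr2 had a promoter summit.

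Ifrd1 (chromosome 12, 40203129 to 40223189, minus strand) had only low scores besides its promoter. A summit 20623 bp downstream of the TSS, just beyond the end of the gene, had a score of 6.53, and a summit 2738 bp downstream in intron 1 had 4.16. The only other mRNA gene starting within 50 kb, Lsmem1, had no promoter summit, and the summits in its intron 1 had scores of 3.75 and 2.149. Upstream, a summit at 1402 bp had a score of 2.149, and beyond it no summit was listed up to 50 kb. This includes the region 25315 bp upstream where GENCODE places the start of a longer Ifrd1 transcript.

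The other genes of each pathway were described from lists of genes that work with the 4. Each of the 4 had the highest promoter score of its list, as the choice of the genes makes likely. The counts below include the chosen gene of each list, which has a promoter summit by choice. Without it, each list is a gene shorter, and 17, 18, 15 and 9 genes had a promoter summit, in the order of the lists below. Of 18 genes of AU-rich mRNA decay, 18 had a promoter summit, against 45.2% of all genes. After Khsrp came Tial1, a translational repressor, at 83.0, the splicing factors Hnrnpa1 at 57.6 and Ptbp1 at 53.8, and Cnot1, the scaffold of the CCR4-NOT deadenylase, at 33.3. The other FUBP proteins, the closest relatives of Khsrp, had 28.5 (Fubp1) and 6.02 (Fubp3). The median of the list without Khsrp was 14.0, near the median of 10.7 over all genes with a promoter summit.

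Of 20 genes of cytochrome c handling and apoptosis, 19 had a promoter summit, against 45.2% of all genes, and the exception was Cyct, the testis form of cytochrome c. The list without Cycs had a median of 15.4 and a highest score of 41.0, at Chchd4, which imports proteins into the intermembrane space. Next were Apaf1, the caspase-activating partner of cytochrome c, at 25.4, Mcl1, an inhibitor of its release, at 24.6, and Cox5a of complex IV and Bcl2l1, both at 23.1. Hccs, which attaches heme to cytochrome c, had 18.1, and Cyc1, the cytochrome of complex III that passes electrons to it, had 10.9. These values are set beside a Cycs score that was itself the reason for choosing the gene.

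Of 26 Sp and KLF factors, 16 had a promoter summit (61.5%, against 45.2% of all genes). Sp1 to Sp4 all had one, at 123.5, 70.5, 26.1 and 42.8, and Sp5 to Sp9 had none. Among the KLF factors, Klf13 had 72.7, Klf6 51.0 and Klf10 49.1, and Klf1, Klf8, Klf12, Klf14 and Klf17 had none. Without Sp1, the 15 genes that had one had a median of 26.1, which leaves out the 10 genes that had none.

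Of 10 genes of the Ifrd family and corepressor partners, 10 had a promoter summit, against 45.2% of all genes. Sin3a, the scaffold of the Sin3 deacetylase complex, had 97.1, and Ifrd2, the paralog of Ifrd1, had 52.9. Sap30, another Sin3 subunit, had 31.7 and Hdac1 14.0, while Sin3b had 2.09. The median of the list was 11.6 with Ifrd1 included, and without Ifrd1 it was below the 10.7 of all genes that had a promoter summit.

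**Figure D4:**
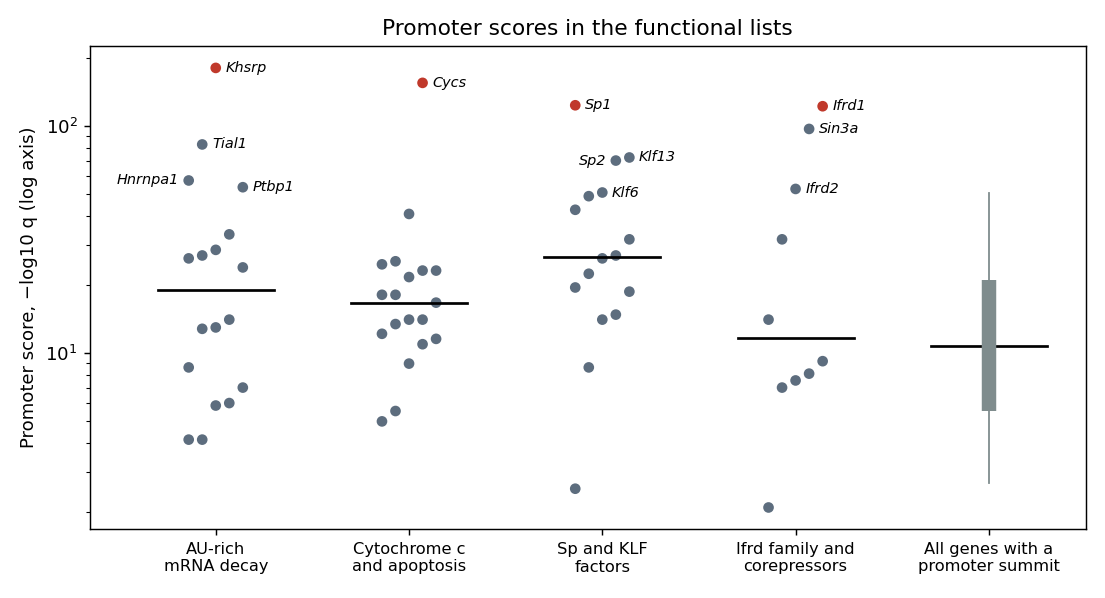
Promoter scores (−log10 q, log axis) of the genes with a promoter summit in the 4 functional lists, with the 4 chosen genes in red and black lines at the medians. The last column gives all 9485 genes with a promoter summit, with the median, quartiles (bar) and the 5th and 95th percentiles (line). Each of the 4 genes is the highest point of its list.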

How the data were processed

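Open chromatin was measured in BAT of 2 WT and 2 Dot1L-BKO mice. BWA alignment to mm10 and ATAC-mode peak calling with MACS2 2.1.1 were done by the authors, who kept peaks at q-values up to 0.05 and at least 2-fold enrichment. The tool names and versions are from the submitters' processing notes and the study's methods. The values deposited are 1 position and 1 −log10 q-value per summit, with the lowest equal to a q-value of 0.0493. How reads were shifted, and how reads that map to several places or to mitochondria were handled, is not given in the sources used here, and either could move a position or a score. The depth of the libraries is unknown, and their number limits the precision.

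Summits were placed against curated RefSeq mRNAs of GRCm38.p6, the build of mm10, on chromosomes 1 to 19, X and Y, and against GENCODE vM21. Promoter sequences are from RefSeq (GRCm38.p6). Sequences were matched to the genome with blastn 2.17.0. Python 3.11.15, numpy 2.4.6, pandas 2.3.3, pysam 0.24.0 and matplotlib 3.10.9 were used. In simulated data, 200 of 200 promoter summits planted at TSSs far from other mRNA TSSs were recovered. So were 200 of 200 GC boxes planted in sequence made of A and T only. Crowded promoters, GC-rich sequence and the other patterns were not covered by this check. No test was made. The members and gene lists were chosen with earlier results of these data known. Genes named were the 4 members, all mRNA genes starting within 50 kb of them, the 15 genes with the highest promoter score, and in each list the 5 highest genes and those without a promoter summit. The cell type marker genes that had a promoter summit were named too. Hccs, Cyc1, Fubp1, Fubp3, Sp3, Sp4 and Sin3b were added after their values were seen. Alternatives changed the score minimum, the windows, the transcripts and the merging of summits.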

Additional observations from a re-analysis of the deposited data

How the results depend on the processing

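No paired analysis was possible because a summit carries a single score over the 4 libraries, so that leaving any replicate aside could not be run either. Of the 26 summits, 14 had a score of at least 5 and 9 a score of at least 10, and 13 lay inside the genes or at most 20 kb from the TSS. The median number of summits within 50 kb of the 4 genes was 7, and it was 3 with a score of at least 5, 1.5 with at least 10 and 3.5 within 20 kb. With neighbours limited to genes whose TSS lies within 20 kb, 0 neighbouring promoters had a summit in place of 6 within 50 kb, although the Gtf2f1 promoter summit itself lay 19893 bp from the Khsrp TSS. These counts fall by construction. With 250 bases on either side, 1 of the 4 promoter summits (Cycs) matched another place in the genome, against 0 with 100 bases, and 8 of all 26 summits did, against 3. All 4 genes stayed among the 15 with the highest promoter score under each score minimum and promoter window. For the score minimum this was fixed by construction, since the genes were chosen for high scores. The same holds for the promoter window of 500 bp, which contains all 4 summits. With a promoter window of 5 kb, Khsrp, Cycs, Sp1 and Ifrd1 took places 3, 5, 6 and 7 in place of 2 to 5. A change of direction was possible only for the positions of the 4 promoter summits against GENCODE starts, and 0 of these changed direction. Of 87 values recomputed under alternatives, 63 stayed close to the value reported, and these include the ranks that were fixed by construction. The other 24 moved by more than 1.5 times or changed between 0 and another count. Those include the Sp1 promoter summit, which lay 214 bp in place of 387 bp upstream when the nearest GENCODE start was taken, an alternative chosen after seeing the data, and the 10 genes of the Ifrd list, of which 5 had a score of at least 10. The unknown depth limits every score here.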

Other observations

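Scores repeat across the list. Of the 32173 summits, 1525 (4.74%) had a score that no other summit shared, and there were 2606 distinct scores in all. Among the 26 summits at Khsrp, Cycs, Sp1 and Ifrd1, 5 had a score of their own, which were the 4 high promoter summits and the Gtf2f1 promoter. The other 21 shared their score with at least 1 other summit, and 19 shared it with 100 or more. The score of 2.149, found at 4 of the 26, occurred at 1670 summits of the list. Low scores at the flanking summits thus come in steps.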
